A study of Drosophila melanogaster with 4 samples.

Results

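The nuclear genome of Drosophila melanogaster encodes most subunits of the mitochondrial respiratory chain, and 64 of these genes were followed through 4 RNA-seq libraries of larval heads. Members were all protein-coding genes, of 11880 genes listed, whose symbols begin with ND-, UQCR-, Sdh, ATPsyn, or COX followed by a digit from 4 to 8. The rule used symbols only and no measured value, but it was chosen with earlier results of these data known. It returned 33 genes of complex I, 5 of complex II, 7 of complex III, 7 of complex IV and 12 of complex V. The complex II genes include Sdhaf3, an assembly factor that is not itself a subunit. The genes lie on all major chromosome arms, with 12 on X, 11 on 2L, 12 on 2R, 12 on 3L, 15 on 3R and 2 on chromosome 4.

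The respiratory chain passes electrons from NADH and succinate to oxygen in the inner mitochondrial membrane and pumps protons across that membrane. Complex I oxidises NADH, complex II oxidises succinate as part of the tricarboxylic acid (TCA) cycle, complex III hands electrons to cytochrome c, and complex IV reduces oxygen. Complex V, the ATP synthase, makes ATP from the proton gradient. Complexes I, III, IV and V also contain a few subunits encoded by mitochondrial DNA (mtDNA), so each of them is assembled from the products of both genomes. Muscle is a tissue rich in these transcripts, and neurons and glia also contain them.

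Each of the 4 groups was 1 library, and all were labelled as the same batch. Every genotype carried Gal4 under the glial driver repo, the temperature-sensitive repressor Gal80[ts] under tub, and UAS-myrRFP, a membrane red fluorescent protein. The Control larvae carried nothing further. Glioma larvae additionally carried UAS-dEGFR[L] and UAS-dp110[CAAX], forms of the EGF receptor and of the catalytic PI3-kinase subunit. The remaining groups were Glioma larvae that also carried UAS-Ca-alpha1T-RNAi, directed at a T-type calcium channel gene, or UAS-Slo-RNAi, directed at the calcium-activated potassium channel gene slo. Parents laid eggs for 3 days at 25 °C, and larvae were then moved to 29 °C for 5 days, which releases Gal4. Expression of the constructs was thus directed to glia, while RNA came from the whole dissected larval head. How many larvae were pooled in a library is not given in the labels.

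With 1 library per group, no difference had a replicate check and no test between conditions was made. Each log2 ratio of scaled counts is given with a 95% exact conditional binomial interval, which covers counting error only. A gene was called higher or lower when the ratio was at least 2-fold, the interval excluded equality, and 1 or both libraries had at least 10 counts. A call therefore describes these libraries. Scaled counts are given as CPM (TMM-scaled counts relative to library size), a scaling that sets the bulk of genes level between libraries.

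Total counts ran from 31594447 to 38826243. Counts from the mitochondrial genome, ribosomal RNA included, made up 7.77% of the Control library, 8.78% of Glioma, 10.7% under Ca-alpha1T RNAi and 15.5% under slo RNAi. The construct genes Egfr and Pi3K92E were above Control in the 3 glioma libraries, with log2 ratios from 1.84 to 3.20. Against Glioma, Pi3K92E was lower in the slo RNAi library at -1.27 (-1.30 to -1.24), and Egfr had -0.46, whereas both were near Glioma with Ca-alpha1T RNAi, at -0.04 and 0.10. Against Glioma, the Ca-alpha1T transcript had a log2 ratio of -0.20 (95% interval -0.36 to -0.04) in the library carrying its RNAi, and slo had -0.45 (-0.59 to -0.32) in its own. The first of these turned to 0.08 when libraries were scaled on total counts. Markers of neurons, glia, muscle, fat body and salivary gland were all present. The salivary gland list summed to 23187 CPM in Control and 2603 in Glioma, but its members split. The 6 Sgs glue genes were lower in Glioma than in Control, with log2 ratios from -8.82 to -3.26, while ng1, ng2 and ng3 had 0.60, 1.05 and 0.17. With Ca-alpha1T RNAi against Glioma, Sgs1, Sgs4 and Sgs5 were called higher (1.30 to 1.53) and the ng genes lower (-3.63 to -2.35), and with slo RNAi all 9 were above Glioma. Fewer cells of a type and less RNA per cell cannot be told apart in such samples. Eggs were laid over 3 days, and whether larval age differed between the libraries was not tested.

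All 64 respiratory chain genes had at least 10 counts in every library, and 62 had a mean of at least 100 counts. Their summed level was 7524 CPM in Control, 12624 in Glioma, 6561 under Ca-alpha1T RNAi and 9344 under slo RNAi. The sum was thus highest in Glioma and lowest with Ca-alpha1T RNAi, and the slo RNAi library lay between Glioma and Control. As a share of all raw counts the genes made up 0.800%, 1.15%, 0.722% and 0.878% in that order.

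On scaled counts the order of the libraries was nearly the same from gene to gene. In 53 of the 64 genes (82.8%) the level fell from Glioma through slo RNAi and Control to Ca-alpha1T RNAi, an order found in 6.50% of 11534 genes overall. Glioma was the highest library for 62 genes (96.9%, against 30.2% of all genes). The library with Ca-alpha1T RNAi was the lowest for 55 (85.9%, against 22.7%). In another 8 genes Control was the lowest and Glioma the highest. The 3 remaining exceptions were ND-15, a complex I accessory subunit for which slo RNAi fell below Control, and the low-count genes UQCR-11L and ATPsynepsilonL. The place of Ca-alpha1T RNAi below Control depended on the scale. It held for 56 genes on scaled counts, 50 on total counts and 30 on the authors' TPM.

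**Figure D1:**
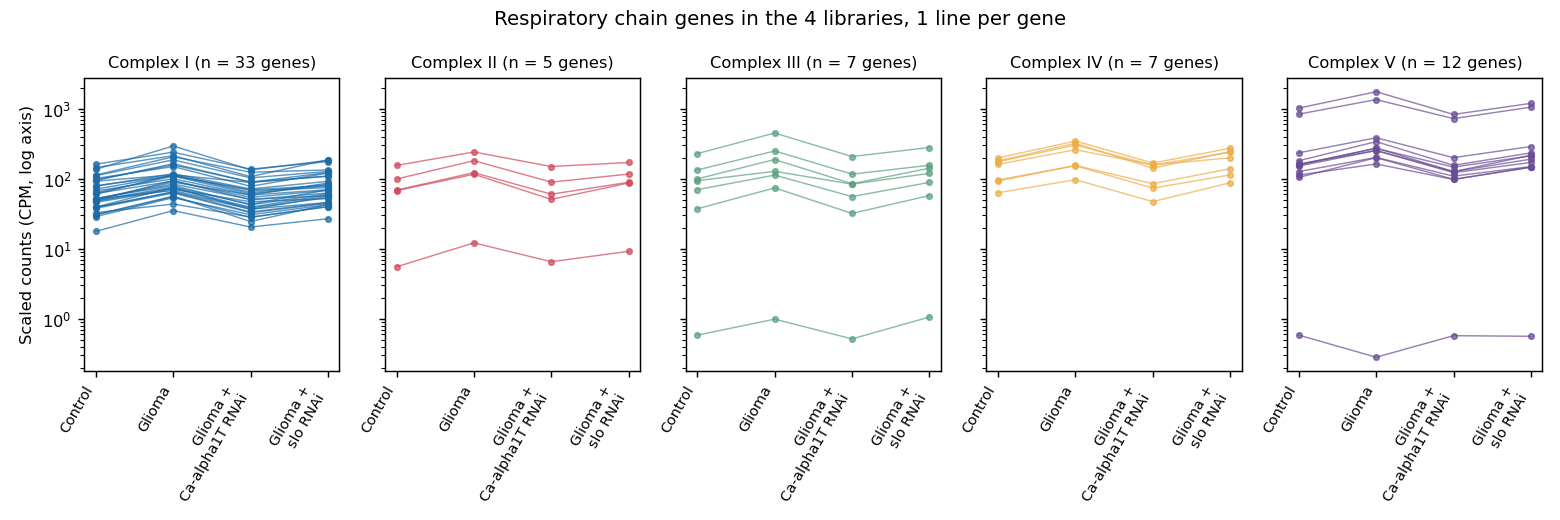
Scaled counts (CPM, log axis) of the 64 genes in the 4 libraries, split by complex, with 1 line per gene joining its values. Glioma is the high point of 62 lines, and the lowest line in the complex III and complex V panels is a gene near 1 CPM.

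In Glioma against Control the respiratory chain genes were higher as a group. Their median log2 ratio was 0.74, a 1.67-fold difference, with the middle of the distribution between 0.62 and 0.86. Of the 64 genes, 63 were above 0, compared with 50.2% of all detected genes, whose median was 0.002. Only 2 genes, ND-75 and Sdhaf3, were called at least 2-fold higher, or 3.13% of the members beside 10.1% of all genes tested. At a limit of 1.5-fold, 52 were higher, or 81.3% beside 17.6% of all genes. The change was therefore moderate in size and shared, with a standard deviation across the genes of 0.27 log2 units against 0.91 for all genes. Genes of low count enter the second value, whereas 60 of the 64 members had a mean of at least 1000 counts.

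Complex I had a median log2 ratio of 0.71 in Glioma against Control, and all of its 33 genes were above 0. ND-75, the largest iron-sulphur subunit, lies at chrX:8248651-8251687 (dm6, minus strand). It had 137 CPM in Control, 295 in Glioma, 134 under Ca-alpha1T RNAi and 184 under slo RNAi. Glioma stood well above the other 3 libraries, and Control and Ca-alpha1T RNAi were nearly equal. The Glioma to Control log2 ratio of ND-75 was 1.11 (95% interval 1.06 to 1.16). ND-51, the flavin-carrying subunit that takes electrons from NADH, had 114, 207, 124 and 134 CPM in the same order of libraries, a Glioma to Control log2 ratio of 0.86. The 7 core subunits had a median of 0.64 and the 26 accessory subunits 0.73.

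At the other end of complex I, the accessory subunit ND-AGGG had 92.7 CPM in Control, 114 in Glioma, 88.9 under Ca-alpha1T RNAi and 110.0 under slo RNAi. Its libraries differed least of all complex I genes, with a Glioma to Control log2 ratio of 0.30 (0.23 to 0.36). ND-13A and ND-B17, also accessory subunits, both had 0.41. ND-MNLL, ND-B12 and ND-19 were near the top at 0.99, 0.94 and 0.93.

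Complex II had a median of 0.83 in Glioma against Control. SdhA, the flavoprotein that oxidises succinate, had 156 CPM in Control, 242 in Glioma, 150.0 under Ca-alpha1T RNAi and 171 under slo RNAi. Its iron-sulphur partner SdhB had 99.5, 182, 89.8 and 117 CPM in that order. Log2 ratios of Glioma to Control were 0.63 for SdhA and 0.87 for SdhB, and the membrane anchors SdhC and SdhD had 0.83 and 0.78. Sdhaf3 had 218, 430, 228 and 278 raw counts, the lowest of any gene here outside the pair near 1 CPM, and a log2 ratio of 1.13 (0.89 to 1.38).

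Complex III had the highest median of the 5 complexes, 0.90. UQCR-C1, a core protein of the complex at chr3R:14890231-14892387 (dm6, plus strand), had 229 CPM in Control, 451 in Glioma, 208 under Ca-alpha1T RNAi and 280 under slo RNAi. The Glioma value was nearly 2-fold the Control value, a log2 ratio of 0.98 (0.94 to 1.01). The small subunit UQCR-6.4 had 37.4, 74.2, 32.1 and 57.7 CPM and a Glioma to Control log2 ratio of 0.99. UQCR-11, the hinge protein that helps cytochrome c bind in other species, was the least changed of the complex at 0.44.

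Complex IV varied little, with Glioma to Control log2 ratios from 0.61 for COX8 to 0.84 for COX5A and a median of 0.74. COX5A had 181 CPM in Control, 322 in Glioma, 142 under Ca-alpha1T RNAi and 246 under slo RNAi. For this gene the libraries differed from each other by more than counting error. COX4 and COX6B had log2 ratios of 0.79 and 0.80.

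Complex V contained the most abundant members. ATPsynbeta, the catalytic subunit, lies at chr4:1031484-1034917 (dm6, plus strand) and had 1025 CPM in Control, 1757 in Glioma, 832 under Ca-alpha1T RNAi and 1197 under slo RNAi. Its Glioma to Control log2 ratio was 0.78 (0.76 to 0.80). ATPsynC, the proton-carrying ring, had 839, 1356, 725 and 1057 CPM and a log2 ratio of 0.69. The peripheral stalk subunit ATPsynD had 0.91, the membrane subunits ATPsynE and ATPsynG had 0.94 and 0.52, and the median of the 12 genes was 0.73.

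**Figure D2:**
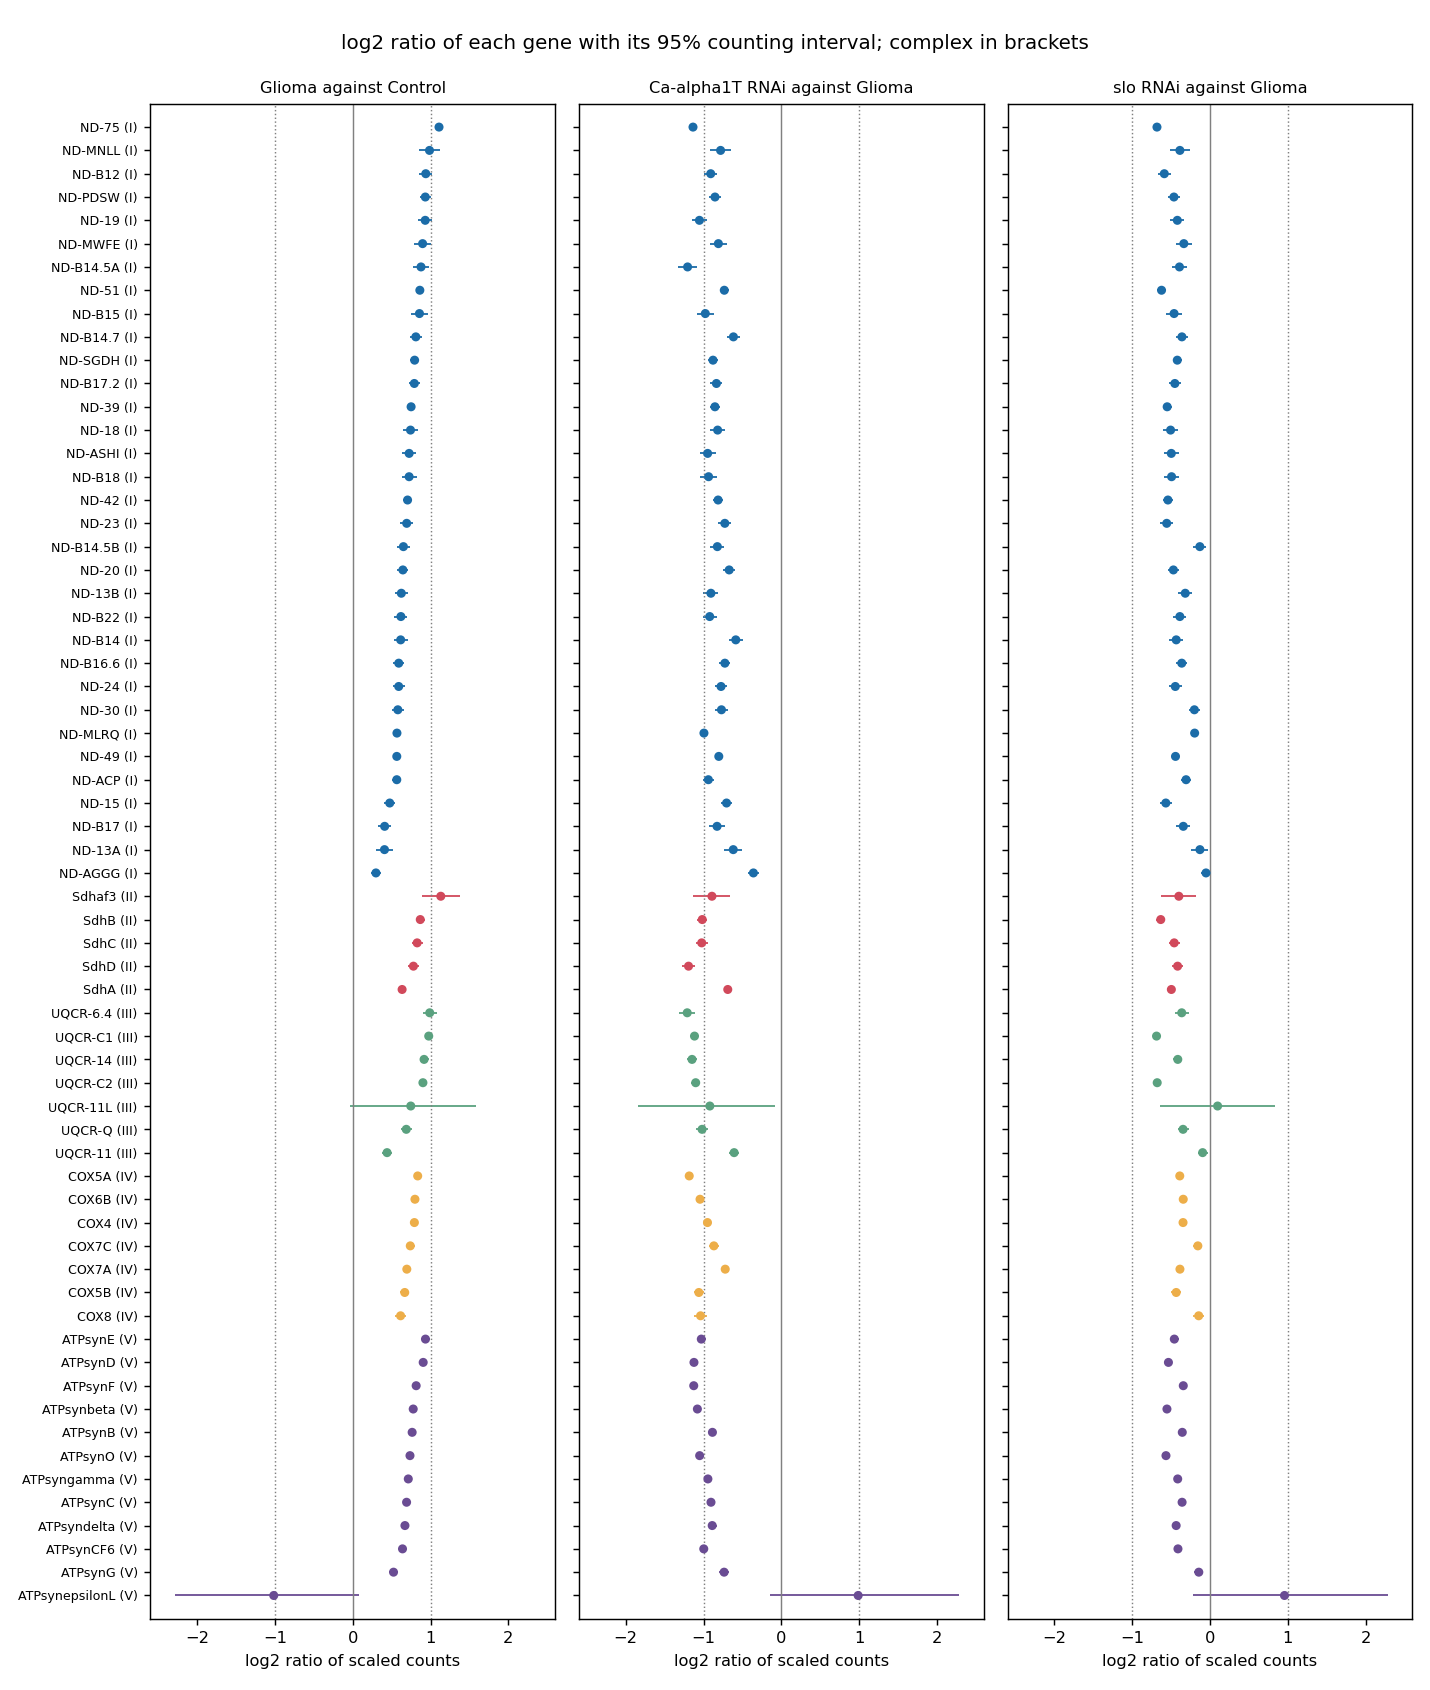
Log2 ratio of scaled counts for each of the 64 genes in 3 comparisons, with points coloured by complex, bars for 95% counting intervals and dotted lines at 2-fold. Points lie to the right of 0 for 63 genes in Glioma against Control and to the left for 63 and 62 genes in the 2 RNAi comparisons, and the wide bars belong to UQCR-11L and ATPsynepsilonL.

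With Ca-alpha1T RNAi against Glioma the same genes were lower. Their median log2 ratio was -0.90, so the level was 0.534 of that in Glioma, and 63 of 64 genes were below 0. Calls of at least 2-fold lower were made for 20 genes, 31.3% of the members beside 6.88% of all genes tested. At 1.5-fold, 62 genes (96.9%) were lower, beside 13.7% of all genes. Because the Glioma library enters this comparison and the previous comparison with opposite sign, the values are given side by side and not as separate evidence.

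The 20 genes called lower were spread over all complexes, but unequally. Complex III had 5 of 7 (median -1.10), complex II 3 of 5 (-1.02), complex IV 4 of 7 (-1.04) and complex V 5 of 12 (-0.97). Complex I had only 3 of 33, namely ND-75, ND-19 and ND-B14.5A, with a median of -0.82. These differences between complexes were not tested.

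The lowest log2 ratios with Ca-alpha1T RNAi against Glioma belonged to UQCR-6.4 at -1.21 (-1.31 to -1.11) and ND-B14.5A at -1.20 (-1.32 to -1.09). ND-B14.5A, an accessory subunit, had 30.8 CPM in Control, 56.6 in Glioma, 24.6 under Ca-alpha1T RNAi and 43.1 under slo RNAi. SdhD had 67.8, 116, 50.9 and 87.2 CPM and a log2 ratio of -1.19. For both genes the Ca-alpha1T RNAi library lay below Control as well as below Glioma. COX5A followed at -1.18, UQCR-14 at -1.15, ND-75 at -1.14, and ATPsynF and ATPsynD at -1.13 and -1.12. Among the least lowered genes were ND-AGGG at -0.36, ND-B14 at -0.59, UQCR-11 at -0.61, SdhA at -0.69, COX7A at -0.72 and ATPsynG at -0.74.

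The slo RNAi library, in which the construct gene Pi3K92E was also lower than in Glioma, differed from Glioma in the same direction and by less. The part of the construct level in these values was not tested. The median log2 ratio was -0.41, or 0.750 of the Glioma level, and 62 of 64 genes were below 0, compared with 51.2% of all detected genes. No member was called at least 2-fold lower, whereas 6.8% of all genes were. At 1.5-fold, 6 members (9.38%) were lower beside 12.3% of all genes, so large changes were no more frequent among the members than elsewhere. These 6 were ND-75, ND-51, ND-B12, SdhB, UQCR-C1 and UQCR-C2. The last pair, the core proteins of complex III, had -0.69 and -0.68, and ND-75 had -0.68. The smallest differences were in ND-AGGG (-0.05, interval -0.12 to 0.02) and UQCR-11 (-0.10).

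By complex the slo RNAi medians were close together, from -0.46 in complex II to -0.35 in complex IV. Complex III, which had the lowest median with Ca-alpha1T RNAi, stood at -0.36 with slo RNAi. Its core proteins and its small subunits parted here, since UQCR-14, UQCR-6.4 and UQCR-Q had -0.41, -0.36 and -0.35. In the direct comparison of Ca-alpha1T RNAi with slo RNAi, 63 genes were lower with Ca-alpha1T RNAi and the median was -0.49.

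Against Control, neither RNAi library had a member called at 2-fold, while 10.2% of all genes were called in either direction under Ca-alpha1T RNAi and 13.3% under slo RNAi. With Ca-alpha1T RNAi the median log2 ratio to Control was -0.18 and 56 genes were below 0. The lowest were ND-MLRQ at -0.43, COX8 at -0.42, ND-B17 at -0.42 and SdhD at -0.41. Complex I lay nearest to Control at -0.12 and complex IV farthest at -0.24. With slo RNAi the median was 0.34 and 62 genes were above 0, with 4 of them (6.25%) at least 1.5-fold higher beside 13.3% of all genes. These were Sdhaf3, UQCR-6.4, ND-MNLL and UQCR-11L, the last with 32 counts against 23.

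The size of these differences depended on how the libraries were scaled, whereas their distance from the median of all genes is by construction left nearly unchanged by any rescaling of whole libraries. On total counts the median of all genes moved by -0.23 in Glioma against Control and by 0.28 with Ca-alpha1T RNAi against Glioma. On that scale the member medians were 0.51 and -0.63, and no member was called higher in the first or lower in the second. The median of the members minus the median of all genes was 0.74 and -0.89 on scaled counts. On the authors' FPKM of the same libraries, with a pseudocount of 1, it was 0.69 and -0.80. Among all called genes, the share called higher was 63.5% on scaled counts and 46.3% on total counts in the first comparison. In the second it was 41.7% and 67.3%.

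A pair of members had few reads, and of all 64 only ATPsynepsilonL was below 0 in Glioma against Control. ATPsynepsilonL, a copy of the ATP synthase epsilon subunit gene, had 23 counts in Control, 10 in Glioma, 20 under Ca-alpha1T RNAi and 17 under slo RNAi. Glioma was its lowest library, and its Glioma to Control log2 ratio was -1.01 (-2.28 to 0.08). The main epsilon gene, sun, is not a member by symbol and had 99.0, 177, 83.1 and 144 CPM. UQCR-11L, a copy of UQCR-11, had 23, 35, 18 and 32 counts. Its Glioma to Control log2 ratio of 0.75, near the members' median of 0.74, had an interval from -0.04 to 1.58. With slo RNAi against Glioma it had 0.10 (-0.64 to 0.83). Reads shared between such copies may have been split by the counting. Exons of 33 members also share bases with another gene, in 28 cases on the opposite strand, and the sources used here do not give whether counting used the strand.

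Levels can be compared between genes only per length, for which the authors' TPM values were used. ATPsynbeta had 805 TPM in Control, 1112 in Glioma, 727 under Ca-alpha1T RNAi and 812 under slo RNAi. ATPsynC had 777, 1001, 759 and 854 TPM, and these complex V genes were the most abundant members per length in each library. ND-MLRQ, a homologue of mammalian NDUFA4, was the most abundant gene with an ND- symbol at 477, 574, 406 and 535 TPM. In mammals that protein is found with complex IV, and COX6B had a similar level of 418, 587, 396 and 501 TPM. ND-MNLL was the least abundant subunit gene of complex I, at 47.0, 71.4, 58.2 and 58.9 TPM. Summed TPM of the 64 genes was 12055, 16151, 11874 and 13278 in the same order.

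Genes of the same pathway with other symbols followed the same order of libraries. Among 7 further subunit genes, all were higher in Glioma than in Control (median 0.83, none at 2-fold) and all were lower with Ca-alpha1T RNAi than in Glioma (median -1.04, 4 at 2-fold). Among them blw, the ATP synthase alpha subunit, had 777, 1336, 680.0 and 1047 CPM, in parallel with ATPsynbeta. Cytochrome c1 (Cyt-c1) had a Glioma to Control log2 ratio of 0.96, the Rieske protein RFeSP 0.78, and the complex IV subunit cype 0.90. The complex III gene ox had 0.89 and the complex IV gene levy 0.68. The carrier protein between complexes III and IV, Cyt-c-p, had 86.2, 125, 73.8 and 107 CPM. Its log2 ratios were 0.54, -0.77 and -0.23 in the 3 main comparisons.

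The TCA cycle list moved with the chain in the comparisons that include the Glioma library. Of 14 genes, 13 were above 0 in Glioma against Control (median 0.80), and CG5028 and the malate dehydrogenase gene Mdh2 were called at 1.32 and 1.09. With Ca-alpha1T RNAi against Glioma all 14 were below 0 (median -0.73), with calls for kdn, the citrate synthase gene (-1.40), CG5028 (-1.22) and Mdh2 (-1.07). In the slo RNAi library kdn had -0.99 and the median was -0.40. With Ca-alpha1T RNAi against Control the list parted from the chain, since its median was 0.05 and that of the members -0.18. In that comparison 8 of the 14 TCA genes were above 0. Citrate synthase had 184 CPM in Control, 348 in Glioma, 131 under Ca-alpha1T RNAi and 175 under slo RNAi.

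Other mitochondrial lists moved less. The 10 assembly factors had a median of 0.46 in Glioma against Control, and Cchl, which attaches haem to cytochrome c, was the highest at 0.75. The 73 mitochondrial ribosomal protein genes had a median of 0.29, which turned to -0.03 on TPM. Medians with Ca-alpha1T RNAi against Glioma were -0.48 and -0.47 for these lists, near 0 on TPM at -0.003 and 0.01. Among 10 carriers the median was 0.38. The phosphate carrier Mpcp1 stood apart at 59.8 CPM in Control, 228 in Glioma, 52.3 under Ca-alpha1T RNAi and 111 under slo RNAi, whereas its relative Mpcp2 had 335, 428, 355 and 422. The adenine nucleotide carrier sesB followed the chain with a Glioma to Control log2 ratio of 0.83.

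Transcripts of the listed regulators did not follow the order of the chain. The list was not limited to regulators of mitochondrial gene expression, since it also held Myc, cnc, sima and Hph. In Glioma against Control the 12 listed regulators had a median of -0.16 and none was called. The coactivator homologue srl (related to PGC-1) had 58.8, 53.1, 68.1 and 69.9 CPM, lowest in Glioma. The transcription factor ewg, a relative of NRF-1, had 95.6, 65.5, 105 and 89.9 CPM, also lowest in Glioma. The oestrogen-related receptor gene ERR had -0.28, and TFAM, which packages mtDNA, had 0.19, which turned below 0 on total counts. With Ca-alpha1T RNAi against Glioma the regulators had a median of 0.25, again with no call. With slo RNAi against Glioma the median was 0.02, and the mitochondrial transcription factor gene mtTFB1 was called higher at 1.05 (0.77 to 1.33).

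**Figure D3:**
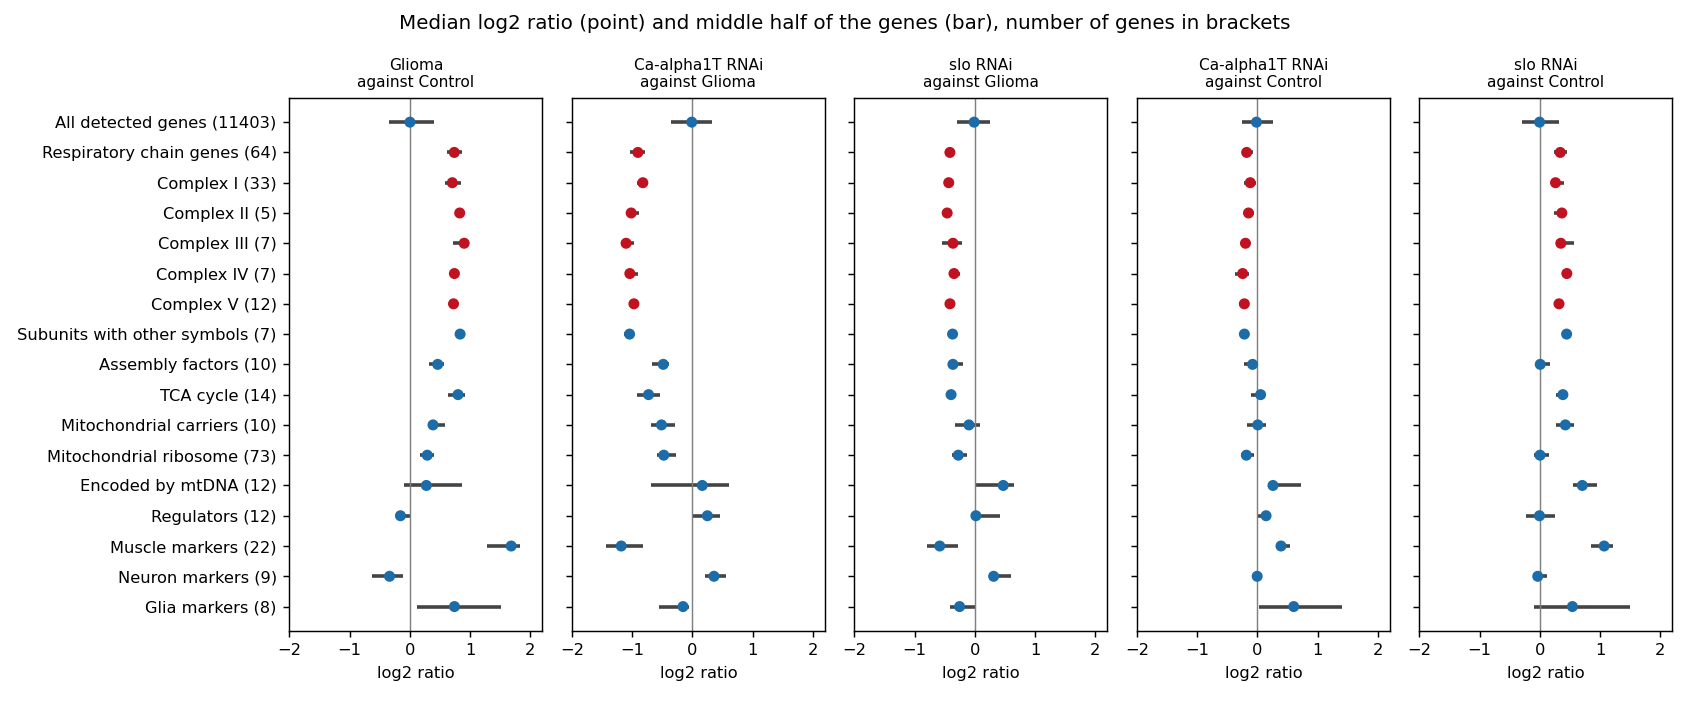
Median log2 ratio (point) and range of the middle 50% of genes (bar) for all detected genes, the members, each complex and other lists, in 5 comparisons. Members and complexes are red; the members' median is 0.74 in Glioma against Control and -0.90 with Ca-alpha1T RNAi against Glioma, while the regulators stand at -0.16 and 0.25.

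The 12 listed protein-coding genes of mtDNA, 6 of them of complex I, followed the nuclear genes of their complexes in part. An mtDNA gene that is not among the 11880 genes listed is missing from these sums. In Glioma against Control the log2 ratio of the summed mtDNA-encoded counts was 0.33 for complex I, beside 0.71 for the nuclear sum, and 0.30 for complex V, beside 0.74. On TPM the complex I sum was level, at 1684 in Control and 1685 in Glioma. For complexes III and IV the mtDNA-encoded sums had -0.54 and -0.10, beside nuclear sums of 0.86 and 0.76. Against Glioma the mtDNA-encoded sums were higher in all 4 complexes, by 0.03 to 1.22 with Ca-alpha1T RNAi and by 0.36 to 1.07 with slo RNAi, where the nuclear sums were lower.

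Over the 12 listed mtDNA genes, the summed level was 18972 CPM in Control, 18023 in Glioma, 24108 under Ca-alpha1T RNAi and 28499 under slo RNAi. Complex IV makes up most of this sum, with 14422 of the 18023 CPM in Glioma, and sets its order. In complexes I and V Control was the lowest library, and in complexes III and V Ca-alpha1T RNAi was the highest. COX1, the catalytic subunit of complex IV, had 8494, 7966, 10438 and 12416 CPM in that order. Its log2 ratios were -0.09 in Glioma against Control, 0.39 with Ca-alpha1T RNAi against Glioma and 0.64 with slo RNAi against Glioma. The nuclear complex IV genes had medians of 0.74, -1.04 and -0.35 in those comparisons.

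The gene for cytochrome b, CYTB, the mtDNA-encoded subunit of complex III, had 1401, 965, 2248 and 2024 CPM. Its ratio to the summed nuclear complex III counts was 0.800 in Glioma, below the other libraries, and 3.86 with Ca-alpha1T RNAi, above them. For complex IV this ratio of mtDNA-encoded to nuclear counts was 15.9, 8.79, 22.6 and 17.7. Glioma had the lowest ratio in complexes I and V too, at 0.460 and 0.176, and Ca-alpha1T RNAi the highest in both. A ratio within a library does not depend on the scaling between libraries.

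The 12 mtDNA genes differed among themselves. ND2 had 12.3, 60.6, 14.2 and 43.1 CPM and ATP8 had 22.3, 105, 18.6 and 57.9 CPM. These genes, at lower levels than COX1 and CYTB, were highest in Glioma, as was ND6. The median over the 12 genes was 0.27 in Glioma against Control, turning to -0.04 on TPM. It was 0.16 under Ca-alpha1T RNAi and 0.47 under slo RNAi against Glioma, both above 0 on every scale tried. The libraries were made from poly-A RNA, and how much of an mtDNA transcript is captured may differ from that of a nuclear transcript; this was not tested.

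**Figure D4:**
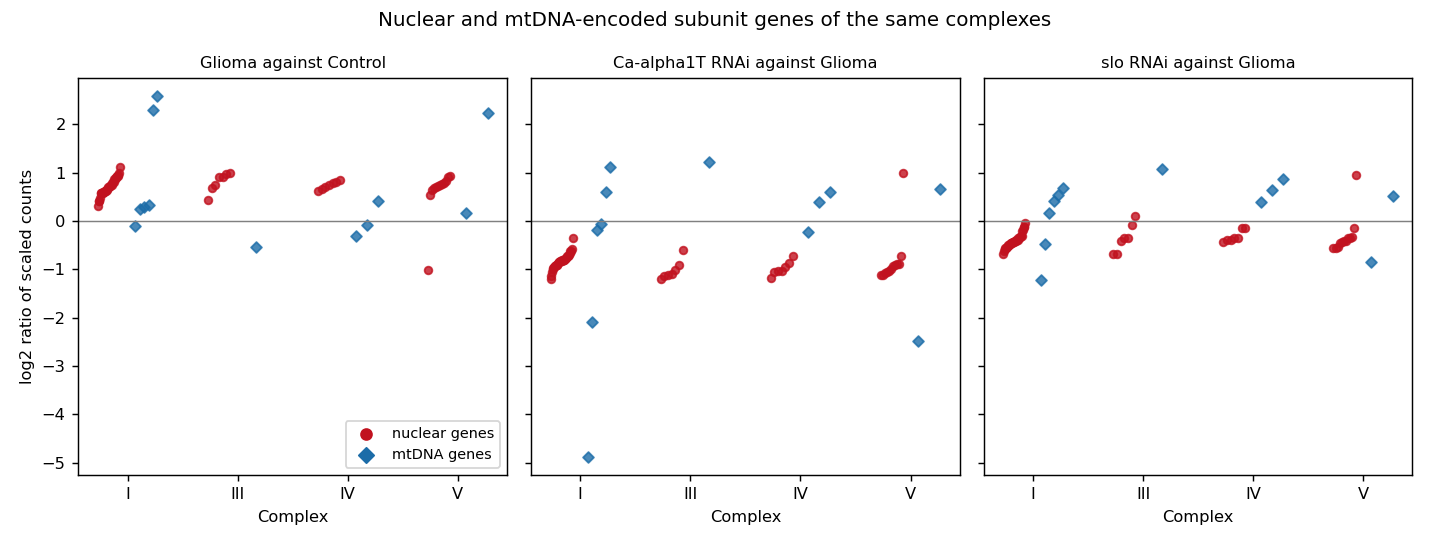
Log2 ratio of scaled counts for nuclear genes (circles) and mtDNA-encoded genes (diamonds) of complexes I, III, IV and V in 3 comparisons. Apart from ATPsynepsilonL of complex V, nuclear genes cluster within each complex. In Glioma against Control that gene is at -1.01 and the mtDNA genes range from -0.54 to 2.57.

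Markers of muscle moved in the same direction as the respiratory chain genes. The 22 listed muscle genes summed to 20732 CPM in Control, 68582 in Glioma, 27633 under Ca-alpha1T RNAi and 42887 under slo RNAi. All 22 were higher in Glioma than in Control (median 1.68, 18 at 2-fold), and all were lower with Ca-alpha1T RNAi than in Glioma (median -1.18, 13 at 2-fold). Because every gene in the table has at least 1 count in each library, no listed marker could be at 0, and the marker Act88F was not analysed here. Against Control the direction parted with Ca-alpha1T RNAi, where muscle markers had a median of 0.39 and the respiratory chain genes -0.18, which was 0.005 on TPM. Markers of neurons had medians of -0.34, 0.36 and 0.31 in the 3 main comparisons, and those of glia 0.74, -0.16 and -0.25. The second glial median turned to 0.12 on total counts. The 8 glial markers split in Glioma against Control, with 6 above 0 and 2 below. Called higher were moody (2.74), Mdr65 (2.69) and repo (1.13), while Gs2 had -0.32 and Eaat1 -0.50. The medians of the fat body genes went the other way from the respiratory chain genes, at -0.61, 0.49 and 1.56. All 7 were lower in Glioma than in Control, and 6 of 7 were called higher with slo RNAi than in Glioma. With Ca-alpha1T RNAi against Glioma they split, with 5 above 0 and 2 below, Lsp1gamma at -0.50 and Lsp1alpha at -0.12. The part of muscle or other tissue in the respiratory chain differences was not tested.

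Most respiratory chain transcripts are short, and short transcripts in general moved in the same direction. Among all protein-coding genes with a mean of at least 100 counts, those with a longest annotated transcript under 1000 bases had medians of 0.29 in Glioma against Control and -0.34 with Ca-alpha1T RNAi against Glioma. Those of 1000 bases or more had -0.07 and 0.04. The 43 members under 1000 bases had medians of 0.74 and -0.91, and the 19 longer members had 0.71 and -0.89. Long and short members thus had nearly equal medians in these comparisons.

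In the slo RNAi library the longer members were lower, with a median log2 ratio to Glioma of -0.50 against -0.39 for the shorter. Across the 62 members with a mean of at least 100 counts, the Pearson correlation of that ratio with log2 transcript length was -0.40 and Spearman's rho was -0.39. Over the 9288 protein-coding genes with at least the same mean count, the values were 0.19 and 0.31. The points share the same pair of libraries, and genes are not independent replicates. For Ca-alpha1T RNAi against Glioma the correlations over the 62 members were 0.06 and 0.12.

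**Figure D5:**
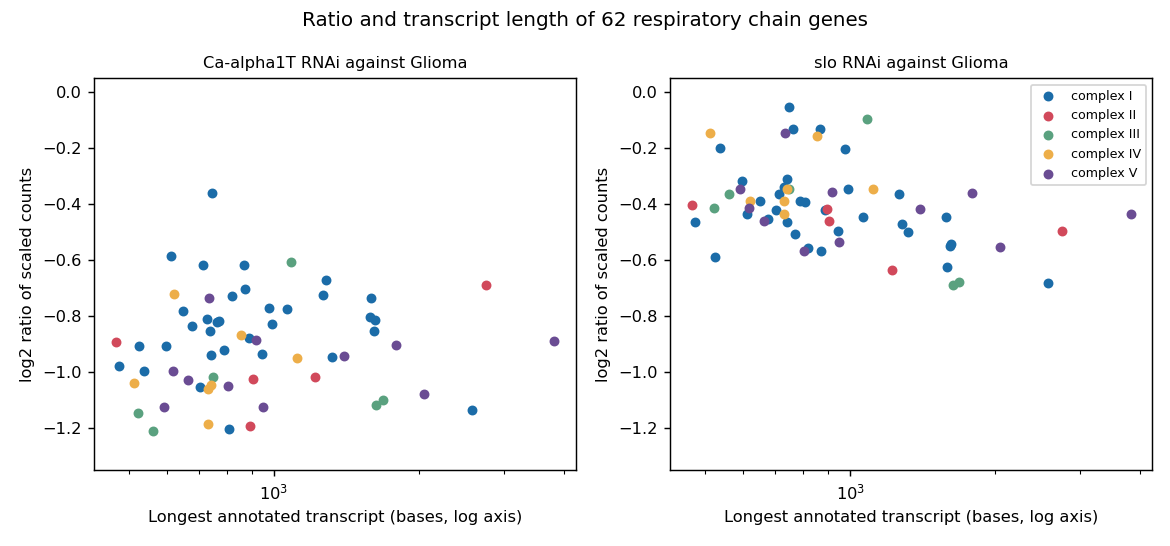
Log2 ratio against Glioma and longest annotated transcript (bases, log axis) for 62 members, coloured by complex, with Ca-alpha1T RNAi on the left and slo RNAi on the right. Longer genes tend to lie lower in the slo RNAi panel (Pearson -0.40), and no such slope is seen with Ca-alpha1T RNAi (0.06).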

How the data were processed

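Whole-number read counts, FPKM and TPM per gene were deposited by the authors in 1 table, per the file headers. Build dm6 and the tools edgeR, HISAT2 (2.1.0), StringTie (2.1.3b), Trimmomatic (0.38) and FastQC (0.11.7) are listed in the submitters' processing notes. Another 8 columns of per-sample values and the authors' fold changes were not used. Every listed gene has at least 1 count in every library.

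Counts were scaled with TMM (edgeR 4.0.16, R 4.3.3). Log2 ratios used a prior count of 0.5, and intervals were computed with scipy 1.17.1. The call rule was tested on counts simulated with counting error alone, the error that the intervals assume. That test cannot cover variation between animals or libraries. PCR copies are not independent molecules, so intervals cover counting error only. Transcript lengths and positions came from an Ensembl annotation in dm6 coordinates.

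Members and gene lists were chosen with earlier results of these data known; 110 of 123 list entries matched. Members named are, per complex, the 3 highest and 3 lowest ratios, all of complex II, copies of members, and the 3 highest by TPM. ND-15 was named after its values were seen. From other lists up to 4 of the largest ratios are named; Mpcp2, srl, blw and the mtDNA genes are described for comparison. Alternatives were other scalings, thresholds, prior counts, FPKM, TPM and a stricter member set. A planned search of promoter motifs was not run, since sequences were not used here.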

Additional observations from a re-analysis of the deposited data

How the results depend on the processing

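The members' median minus that of all genes kept its sign in all 5 comparisons under every alternative, though rescaling whole libraries leaves it nearly unchanged by construction. It moved most with Ca-alpha1T RNAi against Glioma, from -0.89 to -0.80 on FPKM and -0.80 on TPM. The number of members called depended on scale and threshold. In Glioma against Control it was 2, and became 1 on total counts and 1 on total counts without the mitochondrial genome (in both cases ATPsynepsilonL, called lower), 52 at 1.5-fold, 0 on FPKM and 0 on TPM, and 1 among members with a mean of at least 1000 counts. With Ca-alpha1T RNAi against Glioma it was 20, and became 1 on total counts and 1 without the mitochondrial genome (ATPsynepsilonL, called higher), 62 at 1.5-fold, 0 on FPKM and 0 on TPM. At 1.5-fold it rose from 0 to 6 with slo RNAi against Glioma and from 0 to 4 with slo RNAi against Control. FPKM and TPM calls used fold alone, with a pseudocount of 1. Of 1290 recomputed ratios of single named members, 656 stayed within their counting interval, 634 moved beyond it and none changed the direction of a call. The member median with Ca-alpha1T RNAi against Control turned from -0.18 to 0.005 on TPM. No paired analysis was possible because each group had 1 library, and for the same reason no replicate could be left out. Depth limits UQCR-11L and ATPsynepsilonL, which had 10 to 35 counts.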
